A study of Mus musculus with 30 samples.

Results

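The 4 tumours given the EGFR variant R108K were compared with the 3 control tumours given the fluorescent protein mCherry, 7 of the 30 libraries of the series, over all 24421 genes listed. Members were taken by their labels, and 15824 genes that passed a filter on low values were tested. Polyadenylated RNA of bulk cortical tumours, labelled glioblastoma, was sequenced at postnatal day 70, and each library is called a tumour here. In R108K an arginine of the receptor's extracellular part is replaced by lysine. Tumours with the wild-type receptor (labelled EGFR, 3 libraries), tumours with R108G, in which glycine replaces that arginine (3 libraries), and cortex labelled wild type, without tumour and of the same age (2 libraries) serve for comparison here. The labels do not say how the tumours were started, which alterations the mCherry controls share with the variant tumours, which promoter drives the introduced gene, or whether its sequence is that of mouse or human. The design text gives 3 to 5 mice per variant, but no label ties a library to a mouse. The p-values of the main fit therefore measure a spread between libraries, pooled within the 9 groups of all 30 libraries.

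EGFR is a receptor tyrosine kinase that binds ligands of the EGF family, pairs with itself or with its relatives ErbB2, ErbB3 and ErbB4, and signals through RAS and ERK, among other routes. ERK activity raises feedback inhibitors such as the Sprouty, Spred and Dusp genes. Glioblastomas often carry extra or altered copies of the receptor gene, and the extracellular changes found there include those at R108. Oligodendrocyte precursor cells, from which the myelinating oligodendrocytes of the brain arise, divide in the adult cortex and are among the cells from which gliomas can start.

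The unit of level is RPM, meaning the normalised read count of the deposited tables divided by 10.26, the same constant for every library. Differences are of log2(RPM + 1), R108K minus mCherry, with the standard error of the limma fit, and a gene passed where its p, adjusted by Benjamini and Hochberg over all genes tested, was under 0.05. The 7 tumours held 2784129 to 18178209 reads. R108K tumour 1 was the shallowest, and 1 read was 0.383 RPM there against 0.0549 to 0.189 RPM in the other 6. The numbers in the library titles fell into 3 ranges, and the labels do not say what these are. R108K tumours 1 and 2 and mCherry tumours 1 and 2 had numbers below 20, R108K tumours 3 and 4 from 20 to 37, and mCherry tumour 3 above 37. Rn45s, a ribosomal RNA gene, took 4.57% and 2.47% of the reads in R108K tumours 3 and 4 and 0.167% to 0.343% in the other 5. Pairs of R108K tumours differed by a median of 0.419 to 0.55 per gene on the log2 scale, and R108K tumours differed from mCherry tumours by 0.36 to 0.555. The closest of all pairs was R108K tumour 2 with mCherry tumour 2. Met, a receptor tyrosine kinase gene, was 6283 RPM in mCherry tumour 2 and 192 RPM in R108K tumour 2, against 2.07 to 14.6 RPM in the other 5. R108K tumour 2 and mCherry tumour 2 are each left out in turn where that changes a result. Both were singled out by values of these same data, so a pass without 1 of them is no separate support. As a check of the label glioblastoma, the mean of 22 mitosis genes on log2(RPM + 1) was 5.86 to 6.56 in R108K and 5.41 to 6.17 in mCherry tumours, against 1.08 and 1.15 in cortex, and that of 21 precursor genes 7.09 to 8.43 and 6.39 to 7.46, against 5.12 and 5.15.

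Against mCherry, 11 genes passed, 8 higher and 3 lower in R108K, 0.0695% of the genes tested (0.0506% higher and 0.019% lower). Neu4, a sialidase gene of oligodendrocyte precursors, rose and passed in 17 of 20 alternative analyses, and Bfsp2, S100a1, Col9a3, Pllp, Acacb, Efcab1 and Prr14 also rose. Elovl2, Tenm3 and Efnb1 fell. With TMM scaling 5 genes were higher and 3 lower, edgeR gave 3 and 3 (0.0379%), and DESeq2 gave 113 and 91 (1.29%), among them all 11. An unadjusted p under 0.05 was reached by 1581 genes (9.99%; 4.94% higher and 5.06% lower), and the 2 groups did not overlap in 1073 genes (6.78%), 513 higher (3.24%) and 560 lower (3.54%). Without R108K tumour 2, 56 genes passed (38 higher, 18 lower), among them all 11. Leaving out R108K tumour 1, 3 or 4 gave 3, 4 and 5 genes, and leaving out mCherry tumour 1, 2 or 3 gave 9, 5 and 2, of which 5, 2 and 2 were among the 11. Neu4 passed in each of these 7 fits, S100a1 in 6 (not without mCherry tumour 3, adjusted p = 0.0785), Bfsp2 in 4 and Efcab1 in 3. Elovl2, Tenm3 and Pllp passed in 2 each, and Acacb, Col9a3, Efnb1 and Prr14 in 1, the fit without R108K tumour 2. None passed within the range of numbers below 20 (2 tumours against 2), where 1744 genes had an unadjusted p under 0.05, and all 11 kept their direction there. No other range held both groups, and with a term for the 3 ranges none passed, with 1396 genes at an unadjusted p under 0.05.

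**Figure D1:**
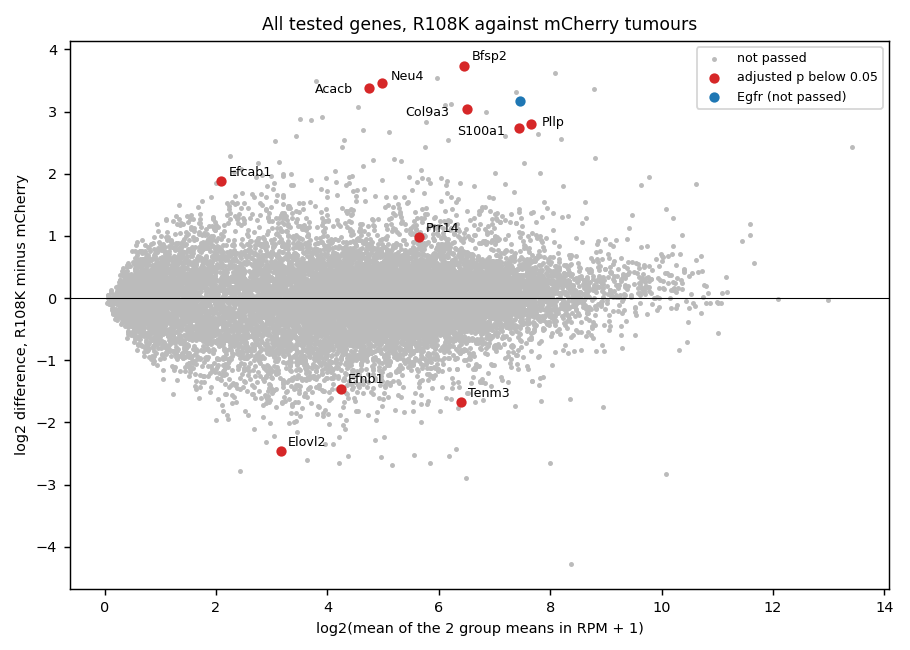
All 15824 genes tested, with the level on the horizontal axis (log2 of the mean of both group means in RPM, plus 1) and the log2 difference of R108K minus mCherry on the vertical axis. The 11 genes that passed are red and named. Egfr (blue) lay as high as several of them but did not pass, and many grey genes with differences of similar size did not pass either.

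Sequence before the listed start of transcription could be read for 9 of the 11 genes from the RefSeq table (GRCm38.p6). In these windows of 250 bases, 3 motifs were searched on both strands, ACAAAG (the core of SOX sites), CAGCTG (an E-box) and CCGGAA (the core of ETS sites). The first and the last were searched with their reverse complements. None of the 9 windows held any of them, against 16.5%, 13.0011% and 12.03% of all 32851 windows. The general E-box CANNTG, which includes CAGCTG, was in 5 of the 9 and in 66.2% of all. In 4 of these 5 it read CACCTG on 1 strand or the other, a spelling singled out after the windows were seen, which 17.2% of all windows held. The windows of 2 genes that rose and 1 that fell are shown because each holds CACCTG, in capitals. Bases that GENCODE gives as exon of the gene itself are left out, and the windows of Bfsp2 and Tenm3 lie inside the genes as GENCODE draws them.
Neu4 (chr1:94020243-94020450, plus strand): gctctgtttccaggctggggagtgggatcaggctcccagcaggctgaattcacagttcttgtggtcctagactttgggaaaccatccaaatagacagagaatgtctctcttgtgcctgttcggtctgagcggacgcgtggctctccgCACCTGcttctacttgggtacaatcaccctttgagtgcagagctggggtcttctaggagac
Bfsp2 (chr9:103449177-103449426, minus strand): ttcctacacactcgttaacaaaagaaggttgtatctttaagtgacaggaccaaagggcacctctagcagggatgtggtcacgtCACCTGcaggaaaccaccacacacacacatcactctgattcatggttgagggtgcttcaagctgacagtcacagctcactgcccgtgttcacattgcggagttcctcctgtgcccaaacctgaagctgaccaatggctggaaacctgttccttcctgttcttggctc
Tenm3 (chr8:48674723-48674940, minus strand): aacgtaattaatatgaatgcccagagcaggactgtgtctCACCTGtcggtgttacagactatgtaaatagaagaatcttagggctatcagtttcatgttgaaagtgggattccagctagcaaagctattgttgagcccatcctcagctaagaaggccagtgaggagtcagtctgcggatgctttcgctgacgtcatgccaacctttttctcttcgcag
The matches describe these letters and these windows alone.

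Egfr (mm10 chromosome 11, 16752203 to 16918158) is the row nearest to the introduced receptor, and how reads of an introduced copy were counted is not known. It was 634, 197, 308.3 and 137 RPM in R108K tumours 1 to 4 and 30.9, 22.1 and 35.4 RPM in mCherry tumours 1 to 3. Every R108K tumour lay above every mCherry tumour, and the 4 differed from each other by more than counting error allows: the exact Poisson 95% intervals, which cover counting error only, were 604 to 666, 189.5 to 205, 299 to 318 and 127 to 147 RPM. The log2 difference of 3.18 ± 1.02 did not pass (limma adjusted p = 0.284), and it was 3.71 within the range below 20. The standard error comes from the spread within all 9 groups of the series, not from these 7 tumours alone. DESeq2 was the sole alternative of 20 that called Egfr (adjusted p = 0.038, against up to 0.592 in the others). With wild-type EGFR the level was 115, 209 and 393 RPM, so that the R108K and wild-type tumours overlapped, and with R108G 17.5, 732 and 52.3 RPM. Normal cortex held 12.7 and 11.3 RPM.

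Of the 3 other receptors of the family, Erbb4 was 4.22, 3.96, 4.91 and 7.35 RPM in R108K and 15.4, 11.03 and 18.9 RPM in mCherry tumours. These groups did not overlap either, with Erbb4 lower in R108K, and the difference of -1.401 ± 0.43 did not pass (adjusted p = 0.243). Erbb3, the partner without strong kinase activity of its own, was 21.7 to 113 against 4.13 to 97.8 RPM and Erbb2 1.53 to 6.06 against 1.701 to 14.8 RPM, both overlapping.

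Tgfa, a ligand of the receptor (mm10 chromosome 6, 86195223 to 86275719), was 259.5, 38.98, 206 and 345 RPM in the R108K tumours and 57.96, 25.8 and 42.5 RPM in the mCherry tumours. R108K tumours 1, 3 and 4 lay above all controls, whereas tumour 2 lay among them. The difference of 2.01 ± 0.55 did not pass (adjusted p = 0.217), and without R108K tumour 2 it was 2.69 ± 0.46 and passed (adjusted p = 0.00849). That tumour was the lowest of the 4 in Tgfa, so leaving it out raises the difference by itself. Amphiregulin, Areg, and epiregulin, Ereg, were at or near 0 in all R108K tumours (at most 0.383 and 0.388 RPM) and highest in mCherry tumour 2 (17.7 and 9.99 RPM). Of the 6 ligand genes tested none passed, 2 had higher means in R108K and the median difference was -0.71, or -0.204 without mCherry tumour 2. Epgn was below the filter.

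None of the 19 ERK targets and feedback inhibitors passed. The means of 18 were lower in R108K, with a median difference of -0.497, against 0.001 and 49.9% lower over all genes tested, and none had groups that did not overlap. Dusp6, a phosphatase that switches ERK off, was 44.8, 129, 39.9 and 55.8 RPM in R108K and 45.6, 720.3 and 44.4 RPM in mCherry tumours. Spred2 was 14.6, 27.95, 16.3 and 23.8 against 37.4, 110.0 and 27.6 RPM (-1.24 ± 0.37, adjusted p = 0.224), and Spry2 21.5, 59.8, 8.604 and 35.5 against 36.5, 179.8 and 35.7 RPM. In each of these genes mCherry tumour 2, the tumour with 6283 RPM of Met, was the highest of all 7. Without that tumour the median of the list was 0.07, with the sign turned.

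**Figure D2:**
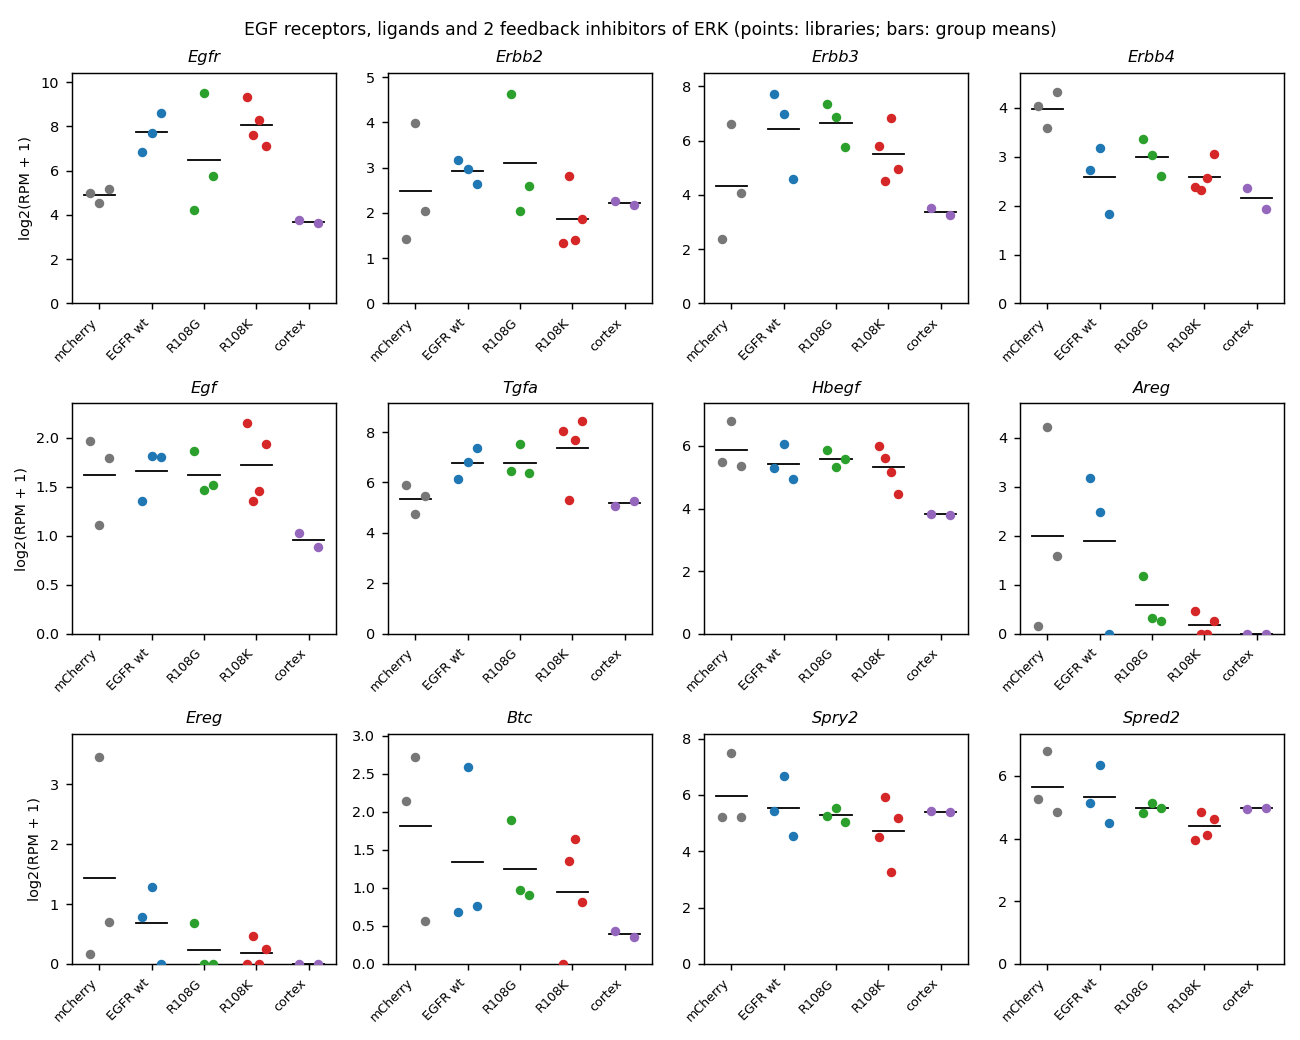
Levels of the 4 EGF receptors, 6 ligands and the feedback inhibitors Spry2 and Spred2, as log2(RPM + 1), in mCherry, wild-type EGFR, R108G and R108K tumours and normal cortex (points are libraries, bars group means). Egfr was above all mCherry tumours in every R108K tumour and Erbb4 below, Tgfa was high in 3 of 4 R108K tumours, and a single mCherry tumour stands high for Areg, Ereg, Spry2 and Spred2.

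Neu4 (mm10 chromosome 1, 94020451 to 94028334) encodes a sialidase, which removes sialic acid from glycoproteins and glycolipids. It was 31.05, 46.4, 39.3 and 111 RPM in R108K tumours 1 to 4 and 6.44, 1.59 and 4.26 RPM in mCherry tumours 1 to 3. Every R108K tumour was above every control, and tumour 4 was the highest. The difference was 3.45 ± 0.46 (limma adjusted p = 0.000985), and within the range below 20 it was 3.15 (adjusted p = 0.0999). Wild-type EGFR tumours lay at 8.42, 19.4 and 37.3 RPM, R108G tumours at 112, 74.9 and 129 RPM and cortex at 15.3 and 15.4 RPM.

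Pllp (mm10 chromosome 8, 94674894 to 94696278) encodes plasmolipin, a membrane protein found in myelin. R108K tumours held 415, 156, 412 and 411 RPM, mCherry tumours 82.3, 33.2 and 34.6 RPM. Tumours 1, 3 and 4 lay close together and tumour 2 lower, yet above all controls. The difference was 2.800 ± 0.53 (adjusted p = 0.0376). Pllp was 52.8, 116 and 370.0 RPM with the wild-type receptor and 380.5, 271 and 171 RPM with R108G.

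Bfsp2 (mm10 chromosome 9, 103424924 to 103480420) encodes phakinin, an intermediate filament protein known from the eye lens. Its rise was the largest of the 8 on the log2 scale. The level was 179.8, 224, 96.4 and 152 RPM in R108K and 12.4, 8.01 and 12.4 RPM in mCherry tumours, without overlap (3.74 ± 0.62, adjusted p = 0.0154). Cortex held 2.75 and 5.66 RPM, wild-type EGFR tumours 12.996, 20.4 and 46.7 RPM and R108G tumours 119, 79.7 and 35.3 RPM, so the R108K tumours were also above all wild-type tumours. How the counting treated strand is not given in the sources used here, and Bfsp2 overlaps 5830418P13Rik and Gm16252 on the other strand. Likewise Col9a3 overlaps Tcfl5, Acacb Gm13784, Pllp Gm45767 and Efcab1 Gm33696, while Prr14 overlaps B130055M24Rik on its own strand, so some reads of these genes could come from their partners.

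Col9a3 (mm10 chromosome 2, 180597790 to 180622189) encodes a chain of collagen IX, a cartilage collagen. Its level was 154, 129, 212 and 149 RPM in R108K and 21.3, 17.4 and 16.6 RPM in mCherry tumours. The 4 R108K tumours were all above the controls, with a difference of 3.04 ± 0.602 (adjusted p = 0.0464). Wild-type EGFR tumours held 36.9, 40.98 and 92.5 RPM and R108G tumours 356, 119 and 487 RPM. Of the other collagen IX chains, Col9a2 was 559.6, 5.82, 1588 and 46.8 RPM in R108K and 26.1, 4.61 and 69.6 RPM in mCherry tumours, and Col9a1 162, 3.42, 499.6 and 34.7 against 32.7, 3.896 and 29.8 RPM. Unlike Col9a3, both were near the lowest control in R108K tumour 2 and high in tumours 1 and 3. Among all 22 collagen chains tested, 13 had higher means in R108K (median 0.37, from -0.02 without mCherry tumour 1 to 0.66 without R108K tumour 4), Col9a3 alone passed, and without R108K tumour 2 the cartilage chain Col11a2 rose (4.35, adjusted p = 0.0344) and the basement membrane chain Col4a5 fell (-3.11, adjusted p = 0.0265).

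S100a1 and Efcab1 encode proteins with calcium-binding EF hands. S100a1 (mm10 chromosome 3, 90511034 to 90514392) was 585, 227, 145 and 248 RPM in R108K and 56.9, 51.3 and 19.5 RPM in mCherry tumours. All R108K tumours were above all controls, tumour 1 the most (2.74 ± 0.42, adjusted p = 0.00584). The level was 99.6, 155 and 192 RPM in wild-type EGFR tumours, 242, 219 and 177 RPM in R108G tumours and 135 and 140.2 RPM in cortex, so every mCherry tumour was below every sample of these groups.

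Efcab1 (mm10 chromosome 16, 14906606 to 14981371) was much lower in RPM, at 7.28, 4.04, 6.72 and 4.34 in R108K and 2.19, 0 and 0.687 in mCherry tumours (1.88 ± 0.34, adjusted p = 0.0277). Cortex held 3.78 and 2.97 RPM and wild-type EGFR tumours 3.13, 3.83 and 4.83 RPM. Of the 11 S100 genes tested, 8 had higher means in R108K (median 0.602, from 0.18 without R108K tumour 1 to 1.02 without R108K tumour 3) and S100a1 alone passed. S100b, a glial calcium-binding protein, was 665, 119, 821 and 304.8 against 219.8, 74.5 and 75.5 RPM and passed without R108K tumour 2 (2.345 ± 0.47, adjusted p = 0.0265).

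2 genes of fatty acid metabolism passed in opposite directions. Acacb (mm10 chromosome 5, 114146535 to 114250761) encodes the acetyl-CoA carboxylase whose product restrains fatty acid oxidation in mitochondria. It was 57.9, 5.44, 31.8 and 102 RPM in R108K and 2.55, 1.21 and 3.299 RPM in mCherry tumours. Tumour 2 was only just above the highest control, and the other 3 were far above (3.38 ± 0.66, adjusted p = 0.0464). R108G tumours held 42.5, 41.9 and 33.2 RPM and wild-type EGFR tumours 2.89, 2.397 and 15.9 RPM.

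Elovl2 (mm10 chromosome 13, 41182381 to 41220405) encodes an elongase of polyunsaturated fatty acids that is known from astrocytes. It was 1.15, 1.09, 1.81 and 3.39 RPM in R108K tumours and 13.97, 13.7 and 14.4 RPM in mCherry tumours, the controls nearly equal and the R108K tumours all lower (-2.46 ± 0.44, adjusted p = 0.0277). The wild-type EGFR tumours (7.100, 9.59 and 3.04 RPM) and the R108G tumours (7.495, 2.97 and 10.03 RPM) reached into the range of the R108K tumours, and cortex held 21.7 and 16.3 RPM.

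The other 2 genes that fell encode proteins of cell contact. Tenm3 (mm10 chromosome 8, 48227682 to 48843951), a teneurin that guides the wiring of neurons, was 43.7, 37.97, 35.2 and 30.2 RPM in R108K and 112, 206 and 72.5 RPM in mCherry tumours (-1.68 ± 0.32, adjusted p = 0.0376). Efnb1 (mm10 chromosome X, 99136130 to 99148991), the ligand ephrin-B1, was 10.3, 10.1, 8.75 and 6.600 RPM in R108K and 24.2, 19.6 and 36.8 RPM in mCherry tumours (-1.46 ± 0.29, adjusted p = 0.0464). In both genes the R108K tumours were the lowest: Tenm3 was 64.8 to 70.5 RPM with the wild-type receptor, 45.6 to 75.1 RPM with R108G and 84.6 and 95.3 RPM in cortex, and Efnb1 18.9 to 34.6, 11.2 to 25.9 and 17.02 and 17.5 RPM. The low R108K values had also selected these 2 genes, so the levels are only set side by side.

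Prr14 (mm10 chromosome 7, 127459611 to 127476759), which encodes a protein that ties heterochromatin to the nuclear lamina, changed least. It was 71.7, 48.5, 69.96 and 71.1 RPM in R108K and 28.4, 38.7 and 30.2 RPM in mCherry tumours (0.98 ± 0.19, adjusted p = 0.0464). The wild-type EGFR tumours lay between these groups, at 43.2, 42.9 and 43.2 RPM.

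**Figure D3:**
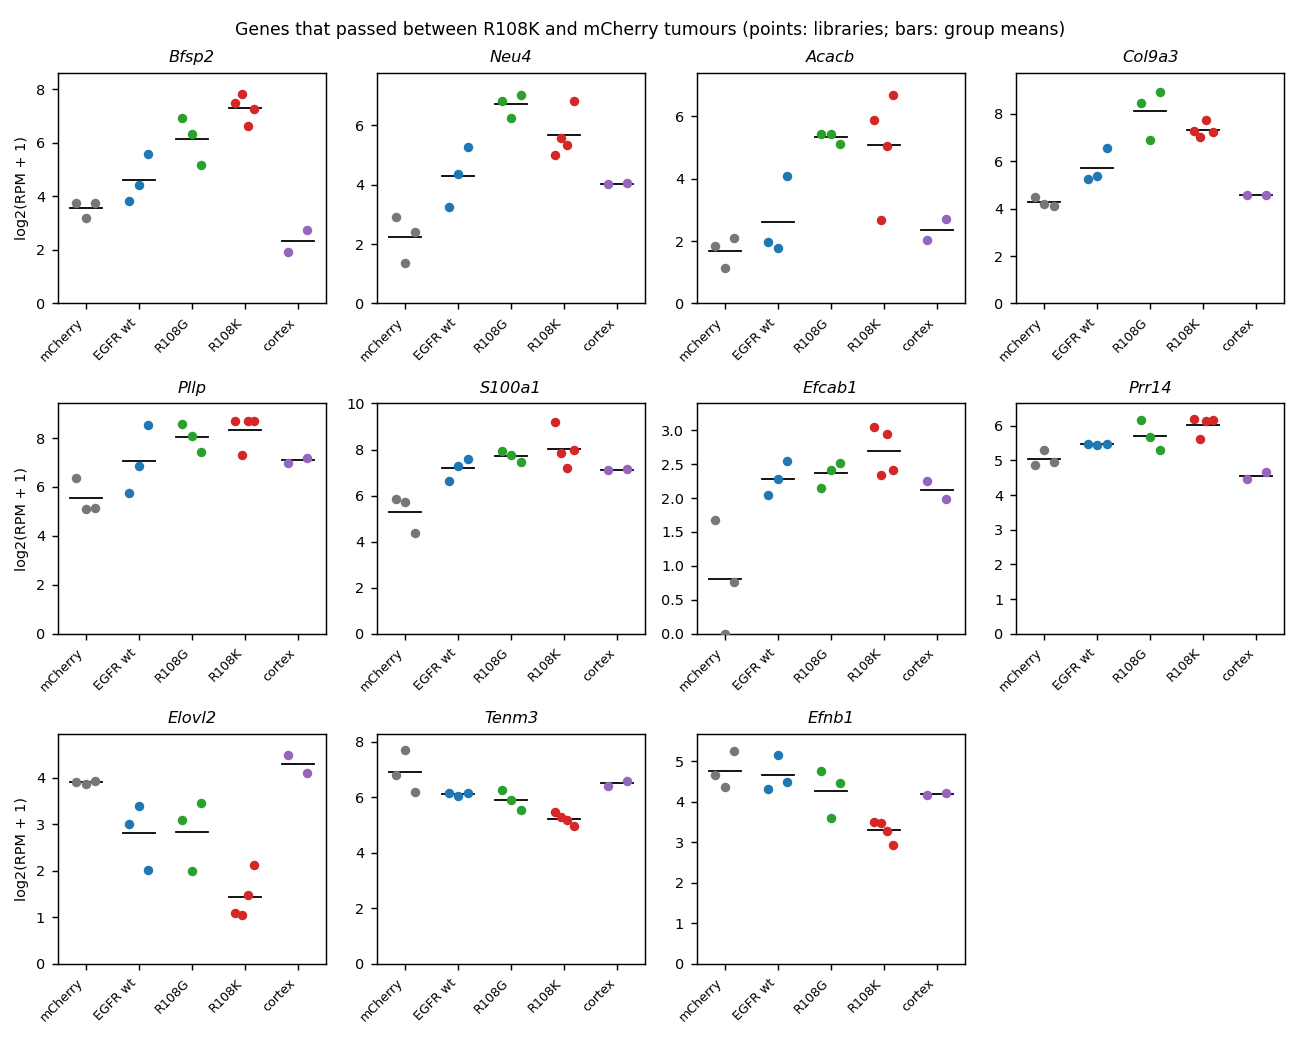
The 11 genes that passed between R108K and mCherry tumours, as log2(RPM + 1) in each library of 5 groups (points) with the group means (bars). In each panel all 4 R108K tumours lie on 1 side of the 3 mCherry tumours, as the rule for naming genes required. For Tenm3 and Efnb1 the R108K tumours also lie below all wild-type EGFR tumours, R108G tumours and cortex samples.

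The oligodendrocyte lineage genes were mostly higher in R108K. In bulk tissue, more cells of a type and more RNA per cell cannot be told apart. Of 21 precursor genes, 20 had higher means (median 0.75), 6 had groups that did not overlap, and Neu4 alone passed, against 3.24% of all genes that lay wholly higher. Gpr17, a receptor of precursors about to differentiate, was 347, 634, 879.8 and 919.9 RPM in R108K and 250.1, 33.1 and 298 RPM in mCherry tumours (2.25 ± 0.597, adjusted p = 0.19). Tnr, a matrix protein, was 204, 108.4, 162 and 239.9 against 83.4, 33.4 and 57.9 RPM (1.63), and Cspg4, the surface proteoglycan NG2, 402, 118, 242 and 266 against 90.2, 88.8 and 109 RPM (1.29). Bcas1 (1.33) and Bcan (0.48) made up the 6.

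The lineage regulators did not pass. Olig1, Olig2 and Sox10 differed by 0.15, 0.02 and 0.12, and Pdgfra, the growth factor receptor of precursors, was 506, 211, 688 and 1574 RPM in R108K and 701, 219 and 620.0 RPM in mCherry tumours, overlapping. Ptprz1 was the exception among the 21 with a lower mean (-0.84). Its 3996 RPM in mCherry tumour 2 lay in the raised stretch of chromosome 6 around Met described further on, against 652 and 759 RPM in the other 2 controls. The list median was 0.36 without mCherry tumour 2 and 0.34 within the range below 20.

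Of 22 genes of myelinating oligodendrocytes, 19 had higher means (median 1.18), 3 lay wholly higher, against 3.24% of all genes, and none passed. With 1 library left out the median went from 0.66 without mCherry tumour 2 to 1.54 without mCherry tumour 1. Myrf, the transcription factor of myelin genes, was 159, 114, 34.8 and 134 RPM in R108K and 33.3, 27.1 and 27.6 RPM in mCherry tumours (1.69 ± 0.63, adjusted p = 0.375). Ugt8a, which makes the myelin lipid galactosylceramide, was 178, 82.7, 94.6 and 83.7 against 42.4, 40.4 and 31.7 RPM, and Nkx6-2 23.8, 16.2, 69.7 and 76.6 against 8.99, 5.54 and 8.11 RPM (2.21 ± 0.62, adjusted p = 0.219). Structural myelin genes varied more among the R108K tumours: Mog was 41.8, 52.02, 5.28 and 29.8 RPM and Mbp 2716, 1480.1, 301 and 1721 RPM, with tumour 3 below the highest control in both. Gjc3, a glial connexin, was 742, 174, 775 and 744 against 187, 159.6 and 192 RPM and passed without R108K tumour 2 (2.07, adjusted p = 0.0344). Cortex was higher in this list than any of the 7 tumours (list means 7.49 and 7.51, against 4.94 to 6.73 in R108K and 4.33 to 5.64 in mCherry tumours).

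Neuron genes were mostly lower in R108K. Of 25, 24 had lower means (median -0.86), 4 lay wholly lower, against 3.54% of all genes, and none passed. Syt1, a calcium sensor of synaptic release, was 62.5, 56.6, 40.8 and 77.1 RPM in R108K and 333, 84.02 and 137 RPM in mCherry tumours. Map2, a dendritic cytoskeleton gene, was 314, 213, 307.2 and 243 against 483, 577 and 381 RPM (-0.83 ± 0.26, adjusted p = 0.249), and Syn1 40.6, 31.8, 33.7 and 36.4 against 145, 58.7 and 63.4 RPM. mCherry tumour 1 was the highest: the list mean was 6.69, 4.67 and 5.22 in mCherry tumours 1 to 3 and 5.001, 4.83, 4.47 and 4.81 in R108K tumours 1 to 4, against 8.94 and 8.86 in cortex. The summed level of the 25 genes was 1253 to 1396 RPM in R108K and 1622 to 4956 RPM in mCherry tumours, and no gene of the list was at 0. Without mCherry tumour 1 the list median was -0.18. With the list mean as a covariate, 7 genes passed, 6 of them among the 11, and the part of neuronal tissue in the differences was not tested otherwise.

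Of 20 astrocyte genes 9 had higher means (median -0.45, from -0.72 without mCherry tumour 2 to 0.21 without mCherry tumour 1). An unadjusted p under 0.05 was reached by 2 of them higher and 2 lower. The smallest p of the list belonged to S100b, which was higher in R108K (1.797 ± 0.52, limma adjusted p = 0.219) with groups that overlapped. Slc4a4, a bicarbonate transporter, and Sox9 lay wholly lower, against 3.54% of all genes. Sox9, a regulator of astrocytes and progenitors, was lower in all R108K tumours (4.22, 29.3, 18.7 and 17.7 against 39.4, 32.8 and 41.9 RPM, -1.32 ± 0.55, adjusted p = 0.417). Of 17 genes of neural stem and progenitor cells, 4 had higher means (median -0.33, from -0.67 without mCherry tumour 2 to -0.08 without R108K tumour 2). Nes, the intermediate filament nestin, was 112, 291, 65.8 and 47.7 RPM in R108K and 146, 379 and 302.2 RPM in mCherry tumours. Among 19 factors by which glia organise synapses the median was -0.43 (from -0.73 without mCherry tumour 3 to -0.01 without R108K tumour 3, and -0.05 without mCherry tumour 2), and Chrdl1, an astrocyte factor that matures synapses, was 3.83, 5.28, 5.51 and 1.697 against 14.8, 17.9 and 7.22 RPM (-1.49 ± 0.52, adjusted p = 0.333). The glypican Gpc4 was 5.37, 7.76, 4.302 and 2.26 against 7.05, 24.4 and 8.87 RPM. None of these 3 lists had a gene that passed.

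Of 22 mitosis genes, 19 had higher means in R108K (median 0.39, from 0.27 without R108K tumour 3 to 0.59 without mCherry tumour 3) and none passed. Ccnb1, Ccnb2 and Cdkn3 lay wholly higher, against 3.24% of all genes, and Cdkn3 lies within a stretch of chromosome 14 that was raised in R108K tumour 3. Mki67, the proliferation marker Ki-67, was 218, 109, 368 and 260.1 RPM in R108K and 115, 68.6 and 192 RPM in mCherry tumours (0.92 ± 0.44, adjusted p = 0.483). The 20 DNA replication genes went less to 1 side, with 5 higher means. Their median was -0.16, from -0.36 without R108K tumour 3 to 0.07 without R108K tumour 1, and -0.56 within the range below 20. Pola1, the catalytic subunit of DNA polymerase alpha, was lower in every R108K tumour (18.8, 25.002, 35.2 and 24.7 against 56.99, 35.5 and 61.7 RPM, -0.96). The cell cycle inhibitor Cdkn2a was 129, 246, 202 and 126 RPM in R108K tumours and 90.5, 767 and 121 RPM in mCherry tumours, its neighbour Cdkn2b 10.7, 45.97, 10.7 and 19.05 and 17.9, 297 and 12.7 RPM. mCherry tumour 2 was the highest in both. Of 13 brake and G1 cyclin genes and of 13 p53 targets, none passed (medians -0.01 and 0.06).

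Immune genes were mostly higher, and none passed. All 7 genes of MHC class II presentation (median 1.82), all 12 of class I (0.71), 13 of 14 tested T and NK cell genes (1.05), all 6 B and plasma cell genes (1.901) and 15 of 23 interferon response genes (0.31) had higher means in R108K. H2-Ab1, a class II chain, was 1065, 1183, 2163 and 773 RPM in R108K and 94.7, 348 and 927 RPM in mCherry tumours. B2m, the light chain of class I, was 3374, 5105, 3732 and 2306 against 1277, 2662 and 1853 RPM (0.92 ± 0.37, adjusted p = 0.403), overlapping only through R108K tumour 4 and mCherry tumour 2.

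Among lymphocyte genes, Cd4 was 6.13, 8.08, 6.49 and 5.47 RPM in R108K and 2.92, 1.59 and 2.61 RPM in mCherry tumours, Cd2 3.83, 2.17, 4.604 and 2.83 against 0.608, 1.32 and 1.31 RPM, and the B cell receptor chain Cd79a 4.98, 15.1, 17.96 and 3.02 against 0.851, 0.2195 and 2.82 RPM, none overlapping. Cd3d and Cd8b1 also lay wholly higher, while Cd5 was at 0 in R108K tumour 1, where 3 reads would be 1.15 RPM. In all, 4 of the 14 T and NK cell genes and 1 of the 6 B and plasma cell genes lay wholly higher, against 3.24% of all genes. The summed level of the 14 T and NK genes was 38.7 to 140.1 RPM in R108K and 14.5 to 47.6 RPM in mCherry tumours. That of the 6 B and plasma cell genes was 85.99 to 932 against 9.96 to 150.3 RPM, most of it Jchain, the joining chain of secreted antibodies (72.4 to 828 against 8.26 to 133 RPM), which overlapped through R108K tumour 4 and mCherry tumour 3. mCherry tumour 1 was the lowest of the 7 for the class I, class II, T and NK, B and plasma cell and interferon lists. Without it the medians were 0.998 for class II, 0.13 for class I and 0.74 for T and NK cells. They were 1.804 for B and plasma cells and -0.17 for interferon, the last with the sign turned.

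Of 15 microglia genes 7 had higher means (median -0.38, from -0.58 without R108K tumour 2 to 0.01 without mCherry tumour 1). Of 16 infiltrating myeloid genes it was 9 (median 0.35, from 0.04 without mCherry tumour 1 to 0.698 without mCherry tumour 3, and 1.11 within the range below 20). Fcrls, a microglial receptor gene, was 0.767, 1.55, 0.604 and 7.54 RPM in R108K and 82.1, 8.12 and 6.26 RPM in mCherry tumours. Ms4a7, a macrophage gene, lay wholly higher in R108K (19.2, 38.6, 33.9 and 28.1 against 1.58, 3.35 and 14.5 RPM, 2.43 ± 0.89, adjusted p = 0.361). Of the 16 infiltrating myeloid genes 2 lay wholly higher, against 3.24% of all genes. Of 17 genes of endothelium and pericytes, 12 had higher means (median 0.32, from -0.003 without mCherry tumour 1 to 0.56 without mCherry tumour 3, and 1.12 within the range below 20). The clotting factor carrier Vwf was 60.6, 30.9, 59.2 and 68.5 against 9.48, 26.8 and 34.3 RPM. Hypoxia and glycolysis genes were higher in 15 of 16 (median 0.46, from 0.28 without mCherry tumour 1 to 0.76 without mCherry tumour 3, and 1.11 within the range below 20) and cholesterol genes in 18 of 19 (0.27), again without a gene that passed. Ankrd37, a hypoxia-induced gene, was 18.02, 8.08, 14.3 and 7.92 against 3.402, 4.17 and 7.84 RPM, and Dhcr7, which makes cholesterol in its last step, 43.7, 101, 103 and 85.2 against 38.3, 54.7 and 48.5 RPM.

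The remaining lists were closer to even. Of 22 mesenchymal glioma genes, 10 had higher means (median -0.13, from -0.49 without mCherry tumour 1 to 0.06 without mCherry tumour 2). Within the range below 20 the median of this list was 0.45, with the sign turned and 17 of 22 higher. Relb was 47.5, 24.9, 17.7 and 29.6 against 16.4, 18.6 and 9.21 RPM. Of 15 other receptor tyrosine kinases, 8 had higher means (median 0.14, from -0.12 without R108K tumour 4 to 0.24 without mCherry tumour 2). Igf1r was lower in all R108K tumours (23.4, 17.4, 26.4 and 15.1 against 30.01, 59.3 and 45.3 RPM, -1.07 ± 0.29, adjusted p = 0.197), and Fgfr2 was 47.9, 43.2, 30.9 and 47.9 against 41.3, 8.89 and 17.9 RPM. The choroid plexus and ependyma list gave a median of -0.03 (4 of 8 higher). It went from -0.32 without mCherry tumour 3 to 0.403 without mCherry tumour 1, where all 8 were higher. The meningeal fibroblast list gave -0.404 (2 of 8; from -0.55 without R108K tumour 2 to -0.07 without R108K tumour 4), with Dcn at 11.5, 10.9, 17.8 and 1.32 against 46.3, 24.3 and 15.9 RPM. Of 5 red blood cell genes only Alas2 passed the filter, at 1.15, 1.01, 0.151 and 1.89 against 0.608, 0.274 and 0.206 RPM.

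**Figure D4:**
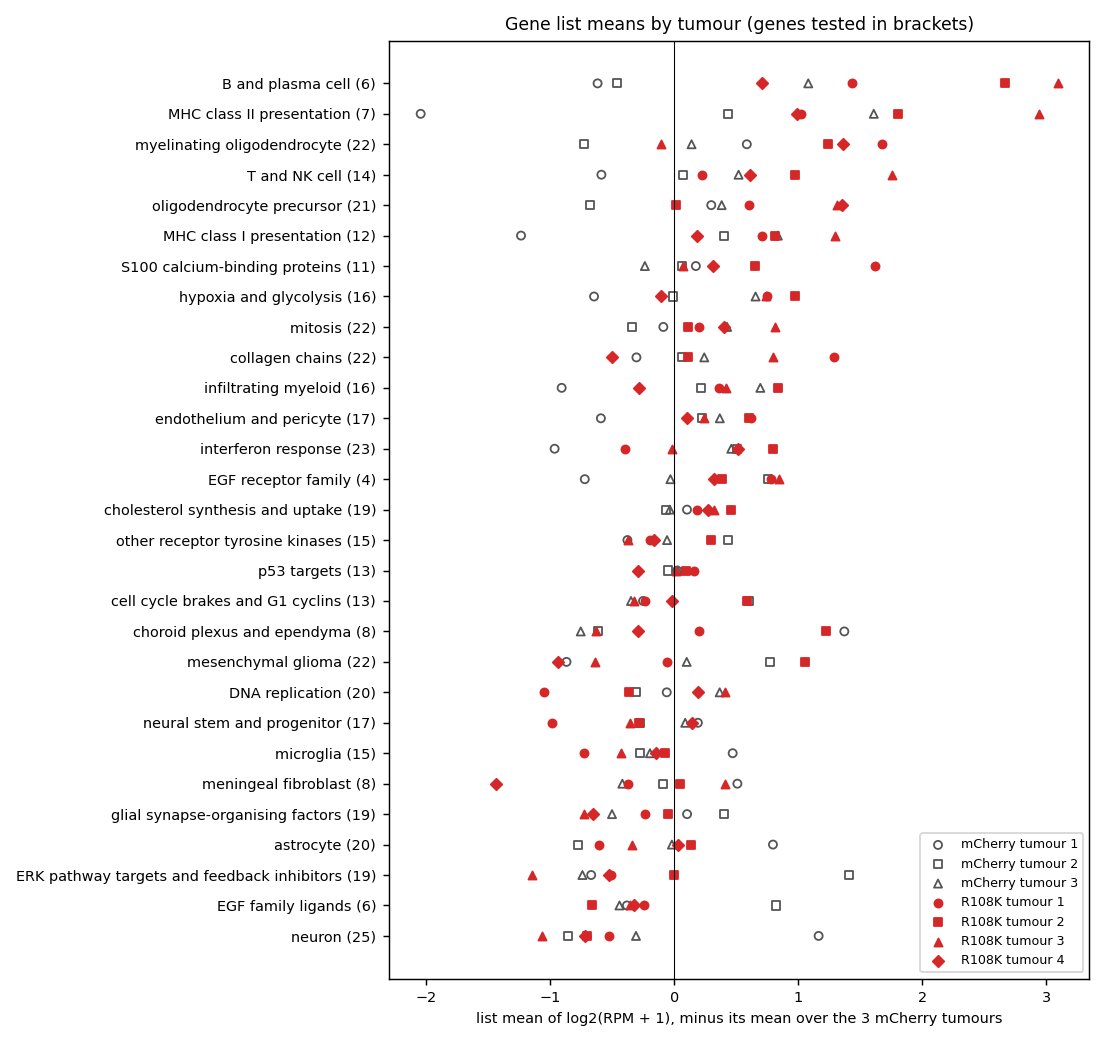
Means of the gene lists in each R108K tumour (red) and mCherry tumour (open), on log2(RPM + 1), relative to the mean of the 3 mCherry tumours. The 2 groups interleave in most lists, mCherry tumour 1 stands high for neuron and low for MHC lists, and mCherry tumour 2 stands high for ERK targets and EGF family ligands.

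R108K was also compared with the wild-type receptor. By limma the count was 0 (0%), with 861 genes (5.44%; 2.83% higher and 2.61% lower) at a raw p under 0.05. The count was 0 by edgeR and 60 by DESeq2 (0.379%). The groups did not overlap in 537 genes (3.39%), 244 higher (1.54%) and 293 lower (1.85%). The R108K tumours serve in both comparisons, so the values of the 11 genes are only set side by side. Against the wild type, Bfsp2 differed by 2.69 ± 0.62 (adjusted p = 0.46), Acacb by 2.47 ± 0.66, Col9a3 by 1.59 ± 0.602, Neu4 by 1.39 ± 0.46 and Pllp by 1.29 ± 0.53. S100a1 differed by 0.87 ± 0.42, Prr14 by 0.57 ± 0.19 and Efcab1 by 0.399 ± 0.34. Elovl2 was at -1.36 ± 0.44, Efnb1 at -1.35 ± 0.29 (adjusted p = 0.46) and Tenm3 at -0.89 ± 0.32. Bfsp2, Col9a3 and Prr14 lay wholly higher and Efnb1 and Tenm3 wholly lower than in wild-type tumours.

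Besides Bfsp2 and Efnb1, the smallest p of each direction against the wild type belonged to Phf7 and Cgrrf1 (higher) and Mboat1 and Wnt6 (lower), all with an adjusted p of 0.46. Phf7, a gene of histone ubiquitination, was 13.8, 9.55, 11.6 and 11.9 RPM in R108K and 5.17, 2.88 and 5.301 RPM in wild-type tumours (1.25 ± 0.26). Mboat1, a lysophospholipid acyltransferase, was 3.83, 7.76, 5.89 and 3.96 against 14.9, 17.98 and 8.26 RPM (-1.19 ± 0.26). The ligand Wnt6 was 0.767, 0.155, 1.21 and 0.189 against 1.81, 3.595 and 3.12 RPM. In R108K tumours 1, 2 and 4 this was under 3 reads, which are 1.15, 0.233 and 0.566 RPM there. Cgrrf1 was 49.8, 30.4, 80.1 and 17.2 against 19.4, 9.35 and 14.5 RPM and was highest in R108K tumour 3, where it lay in a raised stretch of chromosome 14.

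Among the lists, 22 of 23 interferon genes had higher means than with the wild type (median 0.96). Their list means were 7.11, 7.05 and 4.52 in wild-type tumours 1 to 3 and 6.45, 7.64, 6.83 and 7.35 in R108K tumours 1 to 4, so that wild-type tumour 3 was the low one. Precursor genes were higher in 17 of 21 (median 0.38), myelin genes in 18 of 22 (0.502) and neuron genes in 12 of 25 (-0.09). Met was 4610.4 and 3853 RPM in wild-type tumours 1 and 2. Without these and mCherry tumour 2, which left wild-type tumour 3 alone, 25 genes passed (1 higher, 24 lower), and the lone library was taken to vary like the other groups.

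Between R108K and R108G the count by limma was again 0 (0%), with 1569 genes (9.92%; 4.75% higher and 5.17% lower) at a raw p under 0.05. It was 0 by edgeR and 107 by DESeq2 (0.676%). The groups did not overlap in 1213 genes (7.67%), 548 higher (3.46%) and 665 lower (4.2%). All R108G libraries had numbers above 37 and no R108K library did, so the variant and the range cannot be told apart. The 11 genes differed between the 2 variants by -1.02 ± 0.46 for Neu4, -0.79 ± 0.602 for Col9a3, -0.25 ± 0.66 for Acacb, 1.15 ± 0.62 for Bfsp2, 0.31 ± 0.53 for Pllp and 0.31 ± 0.42 for S100a1. Efcab1 and Prr14 were at 0.32 ± 0.34 and 0.31 ± 0.19, Elovl2 at -1.398 ± 0.44, Efnb1 at -0.97 ± 0.29 and Tenm3 at -0.67 ± 0.32. Of these, Tenm3 and Efnb1 had groups that did not overlap, lower in R108K. The R108K values that selected the 11 genes serve here too, so the differences are only set side by side.

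Rab28, a small GTPase, C1d, a factor of RNA processing, and Plxdc2, a plexin domain protein, came closest to passing between the variants, with an adjusted p of 0.0657. Rab28 was 149.9, 127, 87.1 and 145 RPM with R108K and 57.7, 66.5 and 66.3 RPM with R108G (0.96 ± 0.18), and C1d 109, 62.97, 50.04 and 63.6 against 34.4, 31.3 and 24.9 RPM (1.17 ± 0.22). Plxdc2 was 5.75, 14.1, 11.3 and 12.3 against 48.3, 24.8 and 58.4 RPM (-1.898 ± 0.33), with mCherry tumours at 26.4, 35.9 and 29.3 RPM, above all R108K tumours too. Abca3, a lipid transporter, was 54.4, 72.4, 60.1 and 65.2 against 95.1, 125 and 140.3 RPM (-0.91 ± 0.17), with the same adjusted p, and Aspg 1.53, 5.12, 3.698 and 12.1 against 25.5, 14.5 and 36.7 RPM (adjusted p = 0.0687). Mir684-2, a microRNA locus in a library of polyadenylated RNA, was at 9.200, 5.36, 4.38 and 2.26 against 1.15, 0 and 0.201 RPM (adjusted p = 0.111).

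Neuron genes were lower with R108K than with R108G in all 25 (median -1.22), and astrocyte genes in 19 of 20 (median -0.96), 6 of them wholly lower, against 4.2% of all genes, while none passed. The neuron list means of R108G tumours 1 to 3 were 4.66, 6.55 and 6.39, so that tumours 2 and 3 were the high ones. The astrocyte list means were 7.54, 7.38 and 8.47 with R108G and 6.35, 7.095, 6.62 and 6.99 with R108K. Mitosis genes were higher with R108K in 21 of 22 (median 0.28). Precursor and myelin genes were higher in 9 of 21 and 7 of 22 (medians -0.16 and -0.25). The count of genes was 0 to 15 when 1 library was left out, with 15 without R108G tumour 1, 2 without R108G tumour 2, and 7 and 9 without R108K tumours 3 and 4.

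The 4 R108K tumours differed among themselves. Tumour 2 had the lowest precursor list mean (7.68, 7.09, 8.38 and 8.43 in tumours 1 to 4) and the highest mesenchymal list mean (5.999, 7.11, 5.42 and 5.11). Lgals3, galectin-3 of myeloid and mesenchymal cells, was 109, 1119, 70.9 and 74.5 RPM. Without tumour 2, 45 genes passed that had not passed with it, of which 6 belong to a list, Tgfa, S100b, Aldoc, Gjc3 and Col11a2 higher and Col4a5 lower. These passes are no separate support, because tumour 2 was singled out by its values. Aldoc, an astrocyte enzyme of glycolysis, was at 1.11 ± 0.24 without tumour 2 (adjusted p = 0.0344) and 0.68 with it. Tumour 3 had the lowest myelin list mean (6.73, 6.29, 4.94 and 6.42) and the highest MHC class II mean (7.76, 8.53, 9.67 and 7.72), and tumour 1 the highest S100 mean (6.35, 5.39, 4.81 and 5.05). The collagen Col8a1 was 418, 6.29, 2.64 and 0.566 RPM, high in tumour 1 alone.

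Runs of neighbouring genes raised together in 1 tumour were sought among 10825 genes, in windows of 7. Genes of low mean level were left out of this search. A window counted where its median excess over the median of all 28 tumours was at least 1.5 (log2). Overlapping windows were joined, so the median of a whole run can be lower. R108K tumour 3 held a run of 20 genes on chromosome 14 (40906445 to 47531962, mm10), whose median excess over the median of all 28 tumours was 1.29 (log2), with Cgrrf1 and Bmp4 in it. The same tumour held 18 genes of the MHC region on chromosome 17 (34028269 to 34603690, median 1.304), among them H2-Ab1, H2-Eb1, Psmb9 and Col11a2. R108K tumour 2 held the Ms4a genes on chromosome 19 (11 genes, 0.94) and Clec and Klr genes on chromosome 6 (8 genes, 1.22). Among the controls, mCherry tumour 2 held 18 genes on chromosome 6 (13580687 to 23839421, median 1.56), from Tmem168 past Met to Cadps2, and mCherry tumour 1 held 11 genes on the same chromosome (146888487 to 149563329, median 1.45). mCherry tumour 3 held 11 genes around the Gbp cluster of chromosome 5 (0.97). No run was found in R108K tumours 1 and 4. None of the 11 genes that passed lay in a run, although genes of low mean level could not appear in any.

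**Figure D5:**
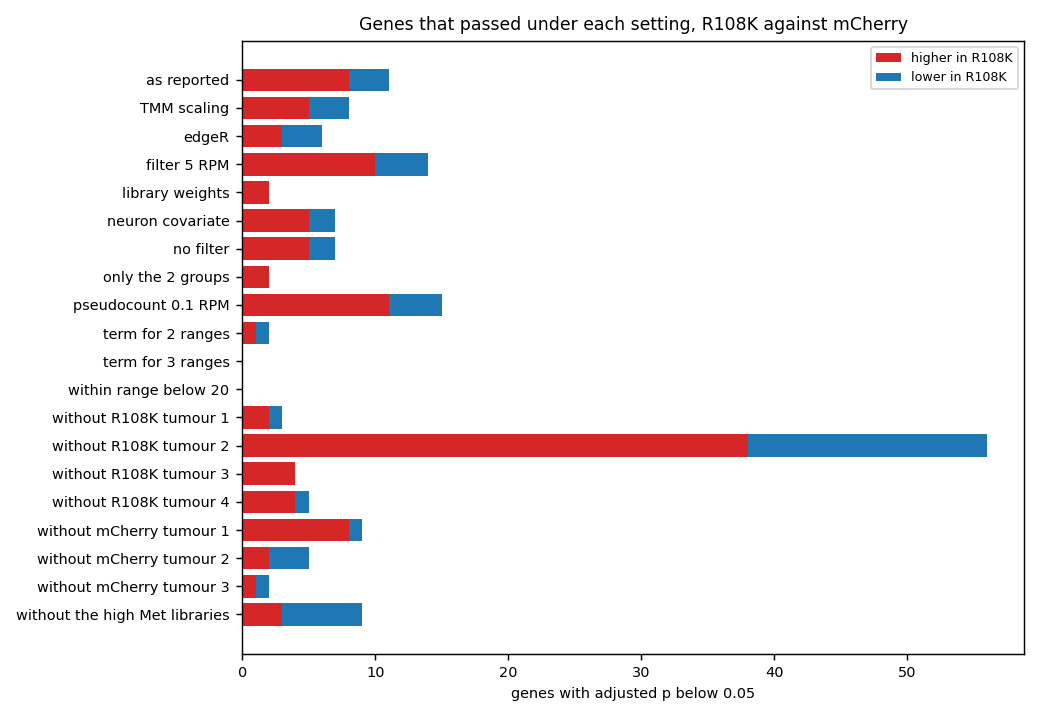
Number of genes with an adjusted p under 0.05 between R108K and mCherry tumours, as reported and under each alternative, split into higher (red) and lower (blue). DESeq2, with 204 genes, is left off the axis. The count was 56 without R108K tumour 2 and 15 or fewer in every other setting shown, with none under the term for 3 ranges or within the range below 20.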

How the data were processed

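Each deposited value is a signal: whole read counts of a gene scaled by 1 constant per library by the authors. With that constant removed, all but 1 value was a whole number of reads within 0.05, so the reads could be recovered. The tables are named RPM, which the test design had assumed, but their library totals reached 9.31 to 12.04 times those of RPM, so values were divided by 10.26. FastQC, STAR 2.5.0a, DESeq2 1.20.0 and mm10 are named without roles, per the submitters' processing notes. A stranded mRNA kit was used, per the labels' protocols. In 27 rows the gene name had become a date, and these were kept as given.

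Tested were genes reaching 1 RPM in 3 or more of the 30 libraries, on log2(RPM + 1), with limma 3.58.1 in R 4.3.3 (9 group means over all libraries; trended, robust eBayes; two-sided; 21 residual degrees of freedom; Benjamini-Hochberg over 15824 genes per comparison). On the recovered reads, DESeq2 1.42.0 and the quasi-likelihood test of edgeR 4.0.16 served as alternatives. Further alternatives were a pseudocount of 0.1 RPM, no filter or 5 RPM, TMM, library weights, only the 2 groups compared, terms for 2 or 3 ranges of library numbers, the range below 20 alone, the neuron list as covariate, 3 libraries with high Met left out, and each library left out. Scripts were checked on simulated data with 200 genes changed in R108K, where 164 genes were called, 15 of them falsely. Of the 8-fold changes 93% were recovered and of the 2.8-fold changes 56%.

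The comparison, the 30 gene lists and the alternatives were chosen with earlier results of these data known. Named were Egfr, genes that passed without overlap and with 5 RPM or more in the higher group (up to 12 a direction), up to 4 passing members of each list or else the 2 of smallest p, and, where a comparison had no passing gene, the 3 of smallest p a direction. Predicted loci and Y-linked genes, with Tsix and Xist, were passed over. Further list members were described after their values were seen. Positions are from GENCODE M21 on mm10 (96.1% of genes tested). Tumours are numbered in accession order.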

Additional observations from a re-analysis of the deposited data

Results flagged for a closer look

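Among 96 sets of 4 values from the R108K tumours (named genes, list means and depth), 6 held a library far from the other 3 by Dixon's test at the 95% level, where chance gives about 1 in 20. R108K tumour 2 was low for Pllp (155.9 RPM, the others 411 to 415), Prr14 (48.5 RPM, the others 69.96 to 71.7) and Gjc3 (174 RPM, the others 742 to 775), and high for Lgals3 (1119 RPM, the others 70.9 to 109). R108K tumour 3 was high for Cdkn3, a phosphatase of the cell cycle (36.8 RPM, the others 8.67 to 10.7), which lies within the raised stretch of chromosome 14 of that tumour. R108K tumour 4 was high for Fcrls (7.54 RPM, the others 0.604 to 1.55).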

How the results depend on the processing

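Against mCherry (11 genes), the count was 204 with DESeq2, 6 with edgeR, 7 with the neuron covariate and 7 with no filter. It was 2 each with library weights, with only the 2 groups and with a term for 2 ranges, which amounts to leaving out mCherry tumour 3. It was 0 with a term for 3 ranges and 0 within the range below 20, and 2 to 56 with 1 library left out. It was 8 with TMM, 14 with a filter of 5 RPM, 15 with a pseudocount of 0.1 RPM and 9 without the libraries with high Met (3 higher, 6 lower, 3 of the 11). With edgeR 3 were higher and 3 lower. Against wild-type EGFR (0) it was 60 with DESeq2, 2 within the range below 20, 25 without the high Met libraries and 0 to 2 with 1 library left out. Against R108G (0) it was 107 with DESeq2, 3 with library weights, 4 with the term for 2 ranges, 5 without the high Met libraries and 0 to 15 with 1 library left out. No range held both variants. The cause was not tested, except that leaving out samples leaves fewer of them. Of 64 genes named against mCherry, 62 kept their direction in every alternative. Tmem212 turned to -0.0034 within the range below 20, and Cdkn2b (-1.17) to 0.2378 without the high Met libraries. With 1 library left out Cdkn2b ranged from -1.98 to 0.2378, the latter without mCherry tumour 2. Besides lists with a median near 0, those of the EGF receptor family, astrocyte, interferon, microglia, endothelium and collagen turned sign without mCherry tumour 1, and that of ERK targets without mCherry tumour 2. The EGF receptor family (0.28) was at -0.31 with DESeq2, -0.33 with edgeR and -0.001 with the neuron covariate, interferon at -0.0008 with that covariate, synapse factors at 0.0017 with DESeq2, and meningeal fibroblast at 0.0079 with DESeq2 and 0.12 within the range below 20. The mesenchymal list (-0.13) was at 0.45 within the range below 20 and at 0.297 with the term for 3 ranges. Depth limits low genes in R108K tumour 1, where 3 reads are 1.15 RPM. No paired analysis was possible because the labels give no replicate number that 2 groups share.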
